A study of Homo sapiens with 12 samples.

Results

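Genes that encode chromatin modifiers and remodellers were examined for sites of 1-methylguanosine (m1G) immunoprecipitation in polyadenylated RNA of PANC-1 cells, an established human line from a pancreatic ductal adenocarcinoma. The members were the protein-coding genes whose symbol begins with KMT, KDM, SETD, EHMT, SMARC, ARID, HDAC or NCOR, or with CHD or BRD and a digit, together with EP300, CREBBP, EZH1, EZH2, DNMT1, DNMT3A, DNMT3B, BPTF and ASH1L. This gave 107 of the 20056 protein-coding genes of the RefSeq table, of which 30 were counted as writers, 31 as erasers, 9 as readers and 35 as remodellers, while 2 fell outside these roles. The prefixes also took in BRD3OS, CHD9NB and the readthrough gene SETDB2-PHF11, which carry the name of a neighbouring gene, and they were kept and counted.

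The libraries formed 4 groups of 3 in experiment 2: m1G precipitate and input of cells depleted of TRMT5 by siRNA for 4 days, and m1G precipitate and input of control cells. The labels call the controls WT control, siRNA was given by reverse transfection with DharmaFECT 1, its sequences are not given in these labels, and whether replicates were separate cultures is not stated. TRMT5 is the methyltransferase that places m1G beside the anticodon of tRNAs, and the study asked which mRNAs may also carry the mark. The 2 deposited lists, MetDiff peaks and MACS2 summits, give 1 value per site for the whole series. They hold no value of a single library or group, so no difference between depleted and control cells could be measured, no value below has a replicate error, and the depth is unknown. Of 8 ductal epithelial marker genes, 5 had a MetDiff peak (CDH1, KRT8, KRT18, KRT19 and SOX9), against 21.3% of all protein-coding genes, and EPCAM, KRT7 and MUC1 had none. Both mesenchymal markers had peaks, CDH2 with a fold of up to 12.6 and VIM also with 5 summits of −log10 q up to 109. A gene without a site is not thereby shown to be unexpressed, since no expression table was used here.

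Chromatin regulators act on the packaging of DNA in nucleosomes. Writers add methyl or acetyl groups to histones or to DNA, erasers remove them, and readers bind the marked histone through domains such as the bromodomain. Remodellers use ATP to move or eject nucleosomes, and most work as large complexes such as BAF and NuRD. Genes of this kind, ARID1A and KMT2D among them, are often mutated in pancreatic cancer. Here they are described only as mRNAs that carried sites of the m1G antibody, and nothing below measures their proteins or activity.

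In 4 members a MetDiff peak took in an annotated transcription start, and their start regions are shown because most peaks of members lie where no sequence could be read here. Each window runs from 250 bases before to 50 bases after a RefSeq start (GRCh38.p14) and is written 5′ to 3′ on the strand of the gene, with bases inside the peak in capitals.
HDAC1, chr1:32291833-32292132, plus strand: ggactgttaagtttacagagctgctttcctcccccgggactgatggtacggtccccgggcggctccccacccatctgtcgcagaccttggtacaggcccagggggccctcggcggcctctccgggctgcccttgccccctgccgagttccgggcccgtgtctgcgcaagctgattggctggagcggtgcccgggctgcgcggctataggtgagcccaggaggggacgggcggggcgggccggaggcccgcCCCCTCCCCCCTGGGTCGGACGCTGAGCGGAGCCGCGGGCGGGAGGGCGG
CHD4, chr12:6606402-6606701, minus strand: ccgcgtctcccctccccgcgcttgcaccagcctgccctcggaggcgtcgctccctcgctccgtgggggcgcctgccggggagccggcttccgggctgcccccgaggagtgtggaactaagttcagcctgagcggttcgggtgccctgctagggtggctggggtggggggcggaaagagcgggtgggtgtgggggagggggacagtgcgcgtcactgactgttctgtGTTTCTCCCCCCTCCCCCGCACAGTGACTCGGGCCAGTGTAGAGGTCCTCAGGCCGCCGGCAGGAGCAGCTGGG
SMARCD1, chr12:50085092-50085391, plus strand: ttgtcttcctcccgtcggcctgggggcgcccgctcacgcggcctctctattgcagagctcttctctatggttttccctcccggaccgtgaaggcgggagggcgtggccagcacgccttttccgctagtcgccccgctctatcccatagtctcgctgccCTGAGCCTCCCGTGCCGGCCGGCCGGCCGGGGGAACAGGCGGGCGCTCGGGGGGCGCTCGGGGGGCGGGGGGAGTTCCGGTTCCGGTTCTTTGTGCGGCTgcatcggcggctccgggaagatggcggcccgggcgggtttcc
SMARCD2, chr17:63842417-63842716, minus strand: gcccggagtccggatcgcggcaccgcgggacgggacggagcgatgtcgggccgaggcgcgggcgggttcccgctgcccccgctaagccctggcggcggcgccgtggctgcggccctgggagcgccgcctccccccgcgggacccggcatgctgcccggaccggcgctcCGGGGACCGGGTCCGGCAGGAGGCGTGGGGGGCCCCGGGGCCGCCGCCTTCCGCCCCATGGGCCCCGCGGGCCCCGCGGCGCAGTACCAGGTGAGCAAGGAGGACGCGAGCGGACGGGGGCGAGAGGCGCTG
In HDAC1 the peak (32292083 to 32292182, fold 6.62, FDR 3.16e-09) began at the annotated start itself, while a MACS2 summit with −log10 q of 14.3 lay 45 bases before it, outside the span. In SMARCD1, a subunit gene of BAF, the peak (50085250 to 50085349, fold 8.75) began 92 bases before the start and so ran past the end of the span. In CHD4 the peak (6606375 to 6606475, fold 9.40) began 24 bases before a listed start. In SMARCD2 1 peak of 2 exon blocks (63838647 to 63842548, fold 7.36) covered this start and an internal one at 63838728. Guanine made up 46.0% of the covered bases in HDAC1, 32.4% in CHD4, 49.0% in SMARCD1 and 47.7% in SMARCD2 at the start shown. At the internal start of SMARCD2 it made up 34.0% of 50 covered bases. The median over the last 50 bases of 22199 windows of protein-coding genes, which follow the start, was 34.0%. In HDAC1 and at the internal start of SMARCD2 the covered bases also followed the start. At the other starts many lay before it, 92 in SMARCD1, 82 in SMARCD2 and 24 in CHD4, so those values have no like reference here. Of the members, 92 were in the RefSeq table of start regions, and only CHD1L had another peak reaching into a window, by 22 bases before a listed start. The sequence of other peaks was not analysed here.

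Sites lay in 53 of the 107 members. A MetDiff peak lay wholly inside the span of 50 members (46.7%), against 21.3% of all protein-coding genes. A MACS2 summit lay inside 18 members (16.8%), against 9.45% of all. Both kinds were present in 15 of the 107 members, against 1618 of the 20056 protein-coding genes. Only a MetDiff peak was present in 35 members and only a summit in 3 (HDAC2, EZH2 and BRD3OS). Of the 50 members with a peak, 30.0% also had a summit, against 37.9% of all protein-coding genes with a peak. The members were proposed with results of these lists in view, so no test accompanies these shares. Members were also longer than other genes, with a median span of 61608 bases against 24092. Within the members the order was the other way, since those with a peak had a median span of 55134.5 bases and those without one 70570 bases. Among remodellers, though, those with a peak had the longer median span, 86090 against 72796.5 bases. The same held over all protein-coding genes, with 26148 against 23521 bases. The part of gene length and of expression level in the shares was not tested.

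The 140 MetDiff peaks in members covered the same range of strength as most other peaks. Their fold, which is the authors' value and was read as precipitate over input from an unlabelled column, had a median of 4.63 and ranged from 1.0 to 15.1. The 9225 peaks in all protein-coding genes had a median of 4.47 and a highest fold of 52.3. A fold of 10 or more was given to 16 of the 140 peaks (11.4%), against 11.7% of all. The median number of peaks per gene with a peak was 2 in members and in all genes. At least 4 peaks were found in 14 of the 50 members with a peak (28.0%), against 794 of 4266 genes (18.6%). Among the 14 were HDAC10, with 3 of 6 peaks under an ID that also has peaks beyond its span, and HDAC7, with 1 of 4 on the opposite strand. Whether the shares differ was not tested. The 24 summits in members had a median −log10 q of 10.97, while the 3365 summits in protein-coding genes had a median of 13.9. That value measures significance and not fold.

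Writers held peaks in a share between those of other roles and had the lowest share with summits. A MetDiff peak lay in 15 of 30 writers (50.0%), 13 of 31 erasers (41.9%), 5 of 9 readers (55.6%) and 15 of 35 remodellers (42.9%). Of all protein-coding genes 21.3% had one. With an FDR under 0.01 asked, erasers with a peak numbered 10, while the counts of writers, readers and remodellers did not change. At that FDR 20.3% of all protein-coding genes had a peak. A summit lay in 2 writers (6.67%), 7 erasers (22.6%), 2 readers (22.2%) and 6 remodellers (17.1%), against 9.45% of all protein-coding genes. The low share of writers thus rests on 2 genes. The 2 counted as readers were BRD2 and BRD3OS, and BRD3OS only carries the name of a neighbouring gene. Median fold was 3.94 over the 45 peaks of writers, 6.08 over the 35 of erasers, 4.82 over the 11 of readers and 3.95 over the 41 of remodellers. Quartiles of the fold were 2.92 and 5.60 in writers and 3.88 and 7.20 in erasers, so the roles overlapped widely. Each role holds few genes, and differences between roles were not tested.

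**Figure D1:**
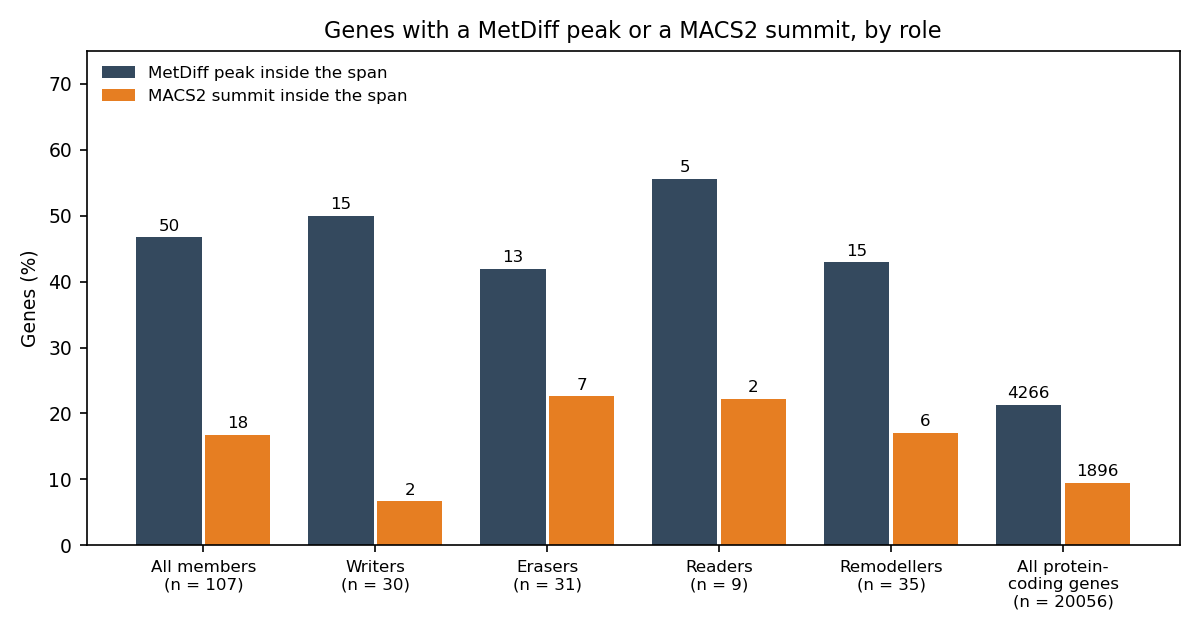
Bars give the percent of genes (y axis) with a MetDiff peak (dark) and with a MACS2 summit (orange) inside the gene span, for all 107 members, for each role and for all protein-coding genes; numbers above bars are genes. The members lie at 46.7% and 16.8%, all protein-coding genes at 21.3% and 9.45%, and the writers have the lowest share with a summit among the roles.

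Among writers, the KMT2 family of histone H3 lysine methyltransferases was uneven. KMT2D, which primes enhancers, had 11 peaks over 1559 exonic bases, a number of peaks reached by 40 genes in all (0.938% of genes with a peak). Its strongest peak (chromosome 12, 49019575 to 49019724, minus strand) had a fold of 11.9 and an FDR of 7.41e-06, and the other 10 had folds between 2.29 and 5.33. The strongest lay 98.4% of the way along the span, and the weaker ones were spread from 14.4% to 81.2%. KMT2B, a paralog with a span of 20876 bases, had 5 peaks of which 4 were strong, with folds of 13.1, 11, 9.67 and 7.33 and a remaining one of 2.62. Its strongest peak lay at 35727512 to 35727612 of chromosome 19 (FDR 2.45e-05), and the one of 9.67 lay 66 bases after the annotated start. KMT2A had 4 peaks with folds from 2.92 to 4.73, all below 4 of the 5 peaks of KMT2B. KMT2C, the closest relative of KMT2D, had neither a peak nor a summit. No KMT2 gene had a summit.

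Of the SETD genes, the H3 lysine methyltransferase gene SETD1A had folds of 10.9 (chromosome 16, 30965906 to 30966006, FDR 0.00214) and 3.94. SETD6, known for methylating the NF-κB subunit RELA, had 1 peak of 549 exonic bases with a fold of 10.6 (chromosome 16, 58515827 to 58516409, FDR 1.07e-05), the longest exonic cover of any single peak in members. SETD5, SETD7, SETDB1 and SETD1B had strongest folds of 2.42, 5.60, 5.43 and 6.84. The peak counted for SETD1B also lay in RHOF and may belong to that gene. ASH1L, which methylates H3 in transcribed genes, had 2 peaks near its 3′ end with folds of 10.7 (FDR 0.0112) and 5.64. EHMT1 and EHMT2 form a heterodimer that methylates H3 in silent chromatin. EHMT1 had 4 peaks with folds from 2.42 to 4.67 and EHMT2 2 peaks with folds of 3.33 and 3.05, all below the strongest peaks of SETD1A, SETD6 and ASH1L.

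The DNA methyltransferase genes differed in both lists. DNMT1, which copies DNA methylation after replication, had 5 peaks with folds of 7.33, 5.53, 3.58, 2.29 and 1.5, the strongest at 10135641 to 10135841 of chromosome 19 (minus strand, FDR 1.23e-05). It also had 2 summits, with −log10 q of 19.5 at position 10149695 and 12.2 at 10154651, the highest of any writer. The de novo enzymes had less: DNMT3A had 2 neighbouring peaks with folds of 2.75 and 1.67, DNMT3B 1 peak of 5.46, and neither had a summit. EZH2, the catalytic subunit of the Polycomb complex PRC2, had no peak and a single summit (−log10 q 5.37, chromosome 7, position 148871540), 16.6% along its span. Its paralog EZH1 and the acetyltransferase genes EP300 and CREBBP had no site in either list. SETD2, KMT2E and the KMT5 genes likewise had none.

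Among erasers, the demethylase genes KDM5B and KDM4B had the highest folds. KDM5B, which removes methyl groups from H3, had 1 peak with a fold of 13.8 (chromosome 1, 202808271 to 202808371, minus strand), 50 bases after the annotated start. Its FDR was 0.0129, so KDM5B has no peak where an FDR under 0.01 is asked. KDM5C had 4 peaks close together, with folds of 8.03, 7.0, 6.69 and 4.59, between 53193469 and 53198801 of the X chromosome. It also had 2 summits of 18.1 and 6.36, the first inside the peak of 6.69 and the second 17 bases outside a block. KDM5A had folds of 7.0 and 3.75 and a summit of 8.99 that lay 967 bases from the nearest block. The sites thus formed a lone peak at the start in KDM5B, a cluster in mid-span in KDM5C and separate sites in KDM5A, while KDM5D had none.

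KDM4B, another H3 demethylase gene, had 5 peaks, all in the last 10% of a span of 184486 bases, with folds of 13, 11.4, 5.40, 4.45 and 3.14. The 2 strongest, at 5151552 to 5151702 and 5151353 to 5151453 of chromosome 19, were neighbours with the same FDR of 0.00288. A summit (−log10 q 4.04, position 5151415) lay inside the peak of 11.4. KDM1A, the flavin-dependent demethylase LSD1, had a fold of 10.4 just after its start (chromosome 1, 23019643 to 23019942, FDR 3.80e-06) and weaker peaks of 2.26 and 1.64. The strongest summit among erasers, with −log10 q of 22.6 at position 23019605, lay 38 bases before that peak. KDM3A had 1 peak of 7.19. A MetDiff peak lay in 6 of the 20 KDM genes, against 21.3% of all protein-coding genes. The other 14 had none, and KDM6A and KDM6B, which remove the Polycomb mark, were among them.

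Of the 11 histone deacetylase genes, 7 carried a MetDiff peak and 3 carried a summit, where 21.3% and 9.45% of all protein-coding genes did. HDAC1 and HDAC2, near-identical nuclear enzymes that share complexes, had different sites. HDAC1 had the peak at its start described above and a summit of 14.8 further along the span, at position 32326835 of chromosome 1. HDAC2 had no peak and a summit of 16.8 at position 113943582 of chromosome 6. HDAC3, the catalytic partner of NCOR1, had neither. HDAC7, a class IIa enzyme, had the highest fold of the deacetylases, 10.1 (chromosome 12, 47794798 to 47794898, minus strand, FDR 5.01e-04), and 3 further peaks of 8.60, 8.60 and 6.0. HDAC6, which deacetylates tubulin in the cytoplasm, had 4 peaks with folds of 7.21, 3.61, 2.72 and 2.18 and a summit of 5.82 that lay between the exon blocks of the strongest peak, 16 bases from the nearest. HDAC10 had 6 peaks with folds from 4.00 to 6.78 in a span of 6083 bases. HDAC5, HDAC8 and HDAC11 had strongest folds of 7.0, 2.79 and 5.90, and the second HDAC5 peak, at 1.0, was the lowest of all members. The only peaks of HDAC8 and HDAC11 had FDRs of 0.0151 and 0.0138.

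BRD2 and BRD3 encode BET proteins, which bind acetylated histones through paired bromodomains. BRD2 had the highest fold of the readers, 14.3 (chromosome 6, 32971736 to 32971835, plus strand, FDR 0.00155), 141 bases after a listed start, and a second peak of 2.72. Its summit (−log10 q 14.3, position 32971672) lay 64 bases before the strong peak. BRD3 had 3 peaks with folds of 9.70, 3.38 and 3.33 and no summit. BRD1, a scaffold of histone acetyltransferase complexes, had folds of 9.56 and 3.31, the first at an FDR of 0.0447. BRD9 and BRD7, subunits of BAF-type complexes, had strongest folds of 4.82 (FDR 0.0339) and 7.0. The peak of 7.0 lay on the strand opposite to BRD7, and the one on its own strand had a fold of 5.62. The summit counted for BRD3OS (−log10 q 10.9, chromosome 9, position 134025805) lay outside the span of BRD3.

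Remodellers held both of the highest folds of all members, and both were in BAF subunit genes. SMARCD1 had a peak of 15.1 at 50085448 to 50085683 of chromosome 12 (FDR 1.26e-07), 106 bases after its start and next to the peak of 8.75 shown above. A summit of 15.5 (position 50086043) lay 360 bases beyond it. ARID1A, the DNA-binding subunit of BAF, had 8 peaks, with folds of 15, 7.60, 6.0, 3.46, 3.13, 2.44, 1.88 and 1.39. The strongest lay at 26697182 to 26697382 of chromosome 1 (plus strand, FDR 4.17e-09), and 5 peaks at the 5′ end, from 26696083 to 26697382, carried that same FDR. Of these 5, the peaks of 7.60 and 3.13 also lay in LOC124900417. The other 3 of the 8 lay between 26773375 and 26780505, near the 3′ end. At least 8 peaks were found in 2.53% of all genes with a peak, and ARID1A had no summit beside its 8. Its paralog ARID1B, which takes the same place in BAF, had 2 peaks of 8.20 and 3.77, both in the 5′ part of the span and both at an FDR of 7.24e-05.

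The BAF ATPase genes were unlike each other in these lists. SMARCA4 had folds of 9.52 (chromosome 19, 11033456 to 11034162, FDR 3.39e-05) and 3.10 and a summit of 12.1 at position 11034008, while SMARCA2 had no site. The core subunit gene SMARCC1 had 3 peaks with folds of 4.34, 2.41 and 1.84. SMARCC2, SMARCB1, SMARCE1, SMARCD3 and ARID2 had no site. SMARCA5, an ISWI-type ATPase, and BPTF, the large subunit of the NURF complex, had none either. ARID3A, a DNA-binding protein that the ARID prefix brings in, had a broad peak of 399 bases with a fold of 12.9 (chromosome 19, 929475 to 929873, FDR 9.12e-10) and a summit of 9.82 inside it. It also had 2 weaker peaks of 4.14 and 3.56.

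Of the 11 genes with a CHD symbol, most of which encode ATPases with chromodomains, 8 carried a MetDiff peak and 3 carried a summit (21.3% and 9.45% of all protein-coding genes did). CHD9NB and CHD1L, which has a macrodomain in place of chromodomains, are counted among them. CHD4, the ATPase of the NuRD complex, had the peak of 9.40 at a listed start and one of 3.95. The peak of 9.40 lay 2.6% along the span and also in LOC124902867. CHD3, its paralog in NuRD, had folds of 3.91 and 2.84 and a summit of 9.44 lying 725 bases from the nearest block. CHD5, the third of this subfamily and known chiefly from neurons, had 6 peaks with folds from 1.73 to 5.40. Of these, 3 lay in the last 10% of the span, and CHD5 also had a summit of 6.89. The peak of 5.40 had an FDR of 0.0347 and the one of 3.23 an FDR of 0.0316. CHD1L, a remodeller recruited in DNA repair, had 1 peak of 9.08 and CHD2 had 4 peaks between 5.44 and 6.91 with a summit of 5.37. CHD7, CHD8 and CHD6 had strongest folds of 6.5, 4.00 and 2.08. CHD1 and CHD9 had no site.

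NCOR1, a corepressor that tethers HDAC3 to nuclear receptors, had a single weak peak and no summit. The peak (chromosome 17, 16039501 to 16039601, minus strand) had a fold of 2.18 and an FDR of 2.09e-04, and it also lay in the span of TTC19.

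**Figure D2:**
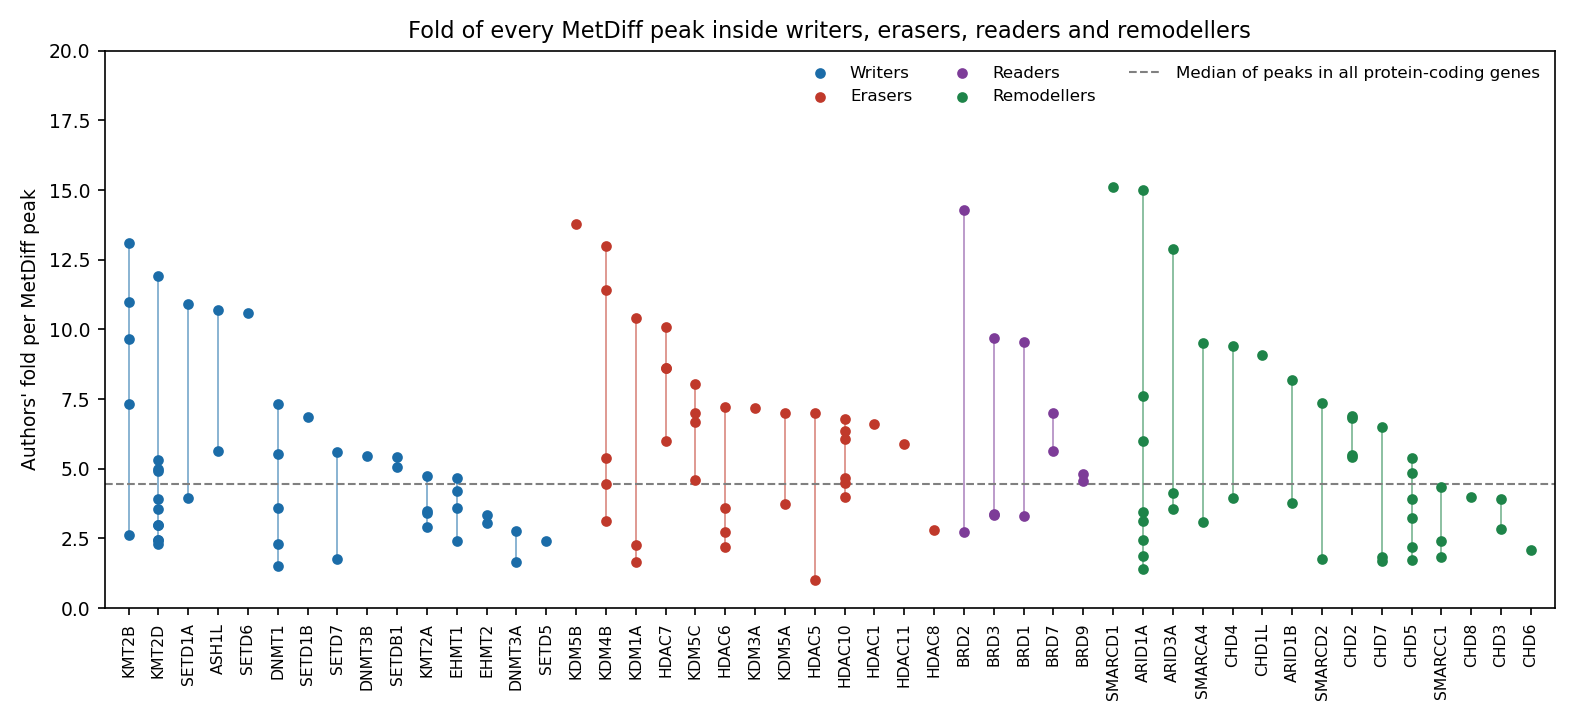
Each point is 1 MetDiff peak and its authors' fold (y axis) for the 48 writers, erasers, readers and remodellers with a peak (x axis, grouped by role and ordered by strongest peak), lines join the lowest and highest peak of a gene, and the dashed line is the median of 4.47 over peaks in all protein-coding genes. Most genes with several peaks span the dashed line, with single strong peaks of 15.1 in SMARCD1 and 13.8 in KDM5B.

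In percent of the span, peaks of members were spread much as those of other genes were. Over 136 peaks on the strand of the member, 20 lay in the first 10% of the span, 43 in the last 10% and 73 between, with median folds of 7.11, 4.67 and 4.14. Spans include introns, so these stretches are not equal stretches of the mRNA. Among the 111 peaks of members with a listed strand, 15.3% lay in the first 10% of the span and 27.9% in the last 10%, against 16.9% and 25.7% of 7414 peaks in all such protein-coding genes. Within 1000 bases after a listed start lay 16 of the 111 (14.4%), in 13 genes, with a median fold of 8.34. Over all protein-coding genes 23.3% of peaks lay there, with a median fold of 5.38. Within 1000 bases of the 3′ end lay 6 of the 111 (5.41%), against 15.7% of all. By role, 8 of 25 such peaks of remodellers were near a start, 4 of them in ARID1A, against 4 of 43 in writers. Whether these shares differ was not tested, and peaks of 1 gene are not independent.

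**Figure D3:**
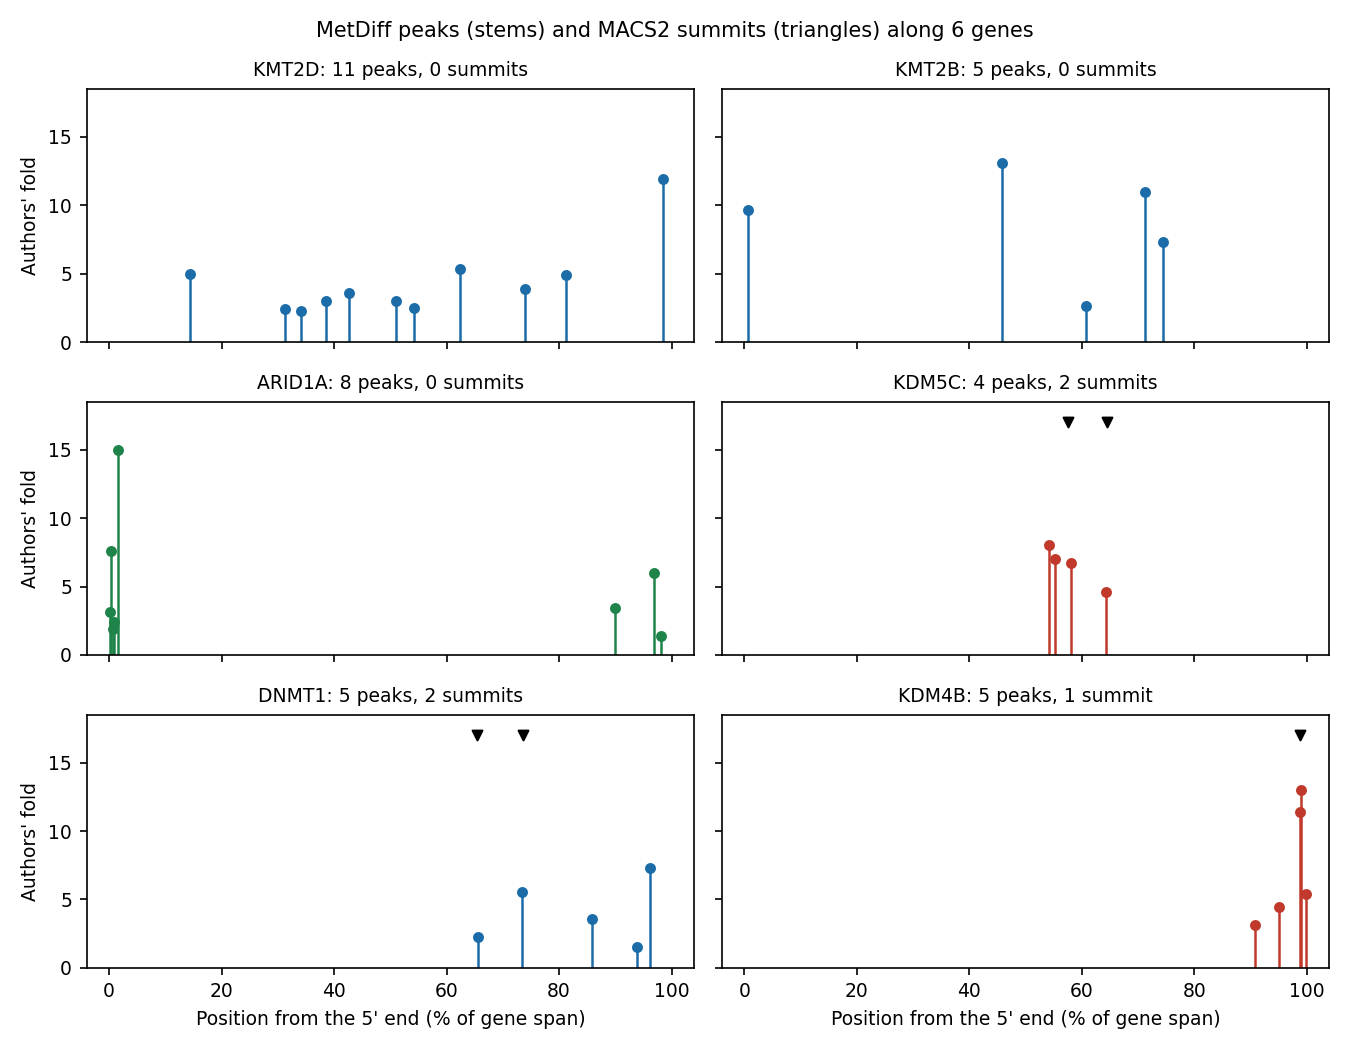
MetDiff peaks (stems, height is the authors' fold) and MACS2 summits (triangles, drawn at 1 fixed height) are placed along the span of 6 genes from the 5′ end (0%) to the 3′ end (100%). The 11 peaks of KMT2D are spread over the span, the 8 of ARID1A fall at both ends, the 5 of KDM4B lie in the last 10%, and summits accompany the peaks of KDM5C, DNMT1 and KDM4B.

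Strong or numerous peaks did not go with summits in every member. Of the 8 members with at least 5 peaks, 4 had no summit (KMT2D, KMT2B, ARID1A and HDAC10), or 50.0%, against 40.6% of the 453 genes with as many. Of the 24 summits, 5 lay inside an exon block of a MetDiff peak (20.8%), against 19.0% of the 3365 summits in protein-coding genes. KDM4B, KDM5C, ARID3A and DNMT1 each held 1 of them. Within 150 bases of a block lay 16 of the 24 (66.7%), against 66.1% of all. The median distance was 71.5 bases in members and 75.0 in all. Summits far from any block were those of EZH2 and HDAC2, at 112233 and 83203 bases, and those of HDAC1 and BRD3OS, at 7702 and 7094 bases. Both lists may rest on the same reads, so a site found in each is not independent evidence.

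**Figure D4:**
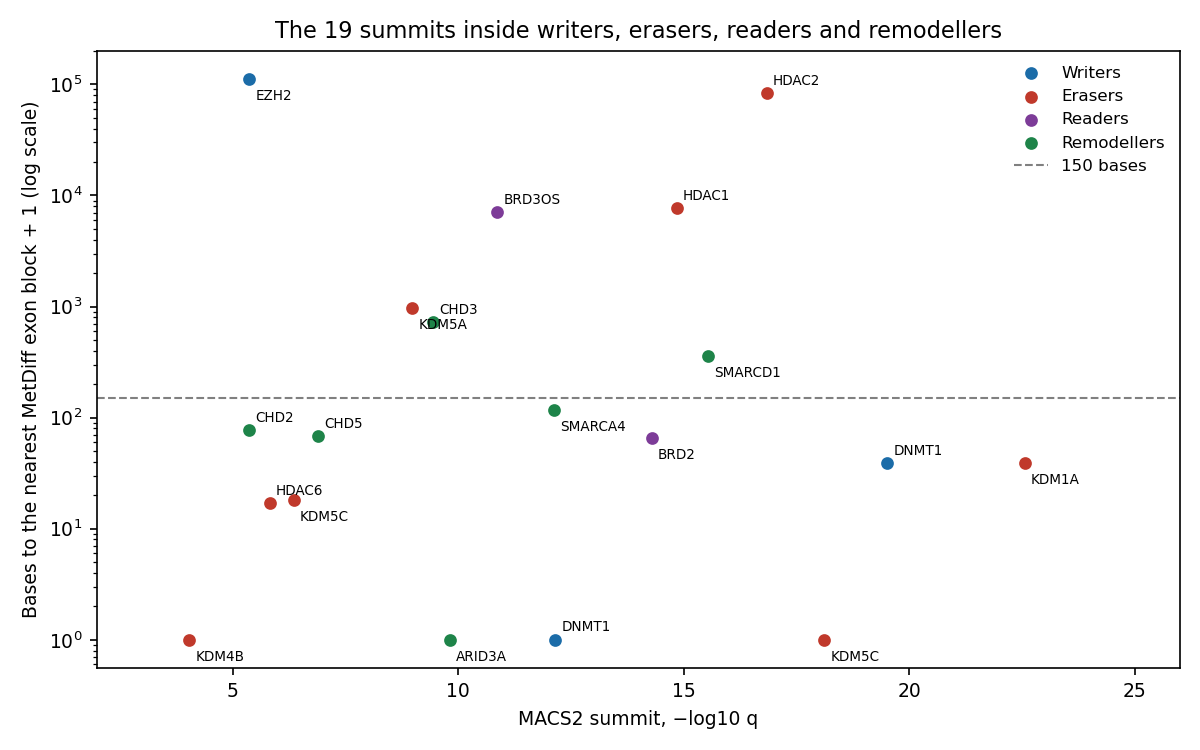
Each point is 1 of the 19 MACS2 summits inside writers, erasers, readers and remodellers, placed by its −log10 q (x axis) and its distance in bases to the nearest MetDiff exon block plus 1 (y axis, log scale), with the dashed line at 150 bases. Of these, 12 lie within that distance, the strongest of them in KDM1A at 22.6, while those of EZH2 and HDAC2 lie farthest from a block.

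In 5 members some peaks carried the Ensembl ID of a second gene or lay on the other strand. HDAC10 had 3 of its 6 peaks under an ID with further peaks beyond its span, and peaks of the 2 IDs shared 486 exonic bases. HDAC7 had 1 of 4 peaks on the opposite strand, with the same fold of 8.60 as a peak of its own strand and 79 shared bases. BRD7 had 1 of 2 on the opposite strand (fold 7.0, with 5.62 on its own) in a stretch that also lies in ADCY7. SETDB1 had 1 of 2 (fold 5.07, with 5.43 on its own). The only peak in the span of SETD1B, with a fold of 6.84, also lay in RHOF, and its ID had other peaks outside SETD1B. Reads of genes that share bases cannot be told apart here, and the counts of these members are uncertain.

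A list of 83 other chromatin genes, holding partners and relatives of the members, gave a similar picture. A MetDiff peak lay in 39 of them (47.0%, against 21.3% of all protein-coding genes), and 14 held a summit (16.9%, against 9.45%). The median fold of its 87 peaks was 4.60. The highest fold was 21.0 in RUVBL1, an ATPase of the INO80 and TIP60 complexes, which also had 3 summits up to 49.8. RING1, a Polycomb ubiquitin ligase, had a fold of 16.0, and SRCAP, a remodeller that deposits a histone variant, had 13 peaks with folds up to 5.57 and no summit. TRIM28, a corepressor that recruits SETDB1, had 5 summits with −log10 q up to 55.4.

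The remaining 54 members had no site in either list. Besides those named above they included the writers SETD3, SETD4, SETD9, SETDB2 and SETDB2-PHF11, and the erasers HDAC4, HDAC9, KDM1B, KDM2A, KDM2B, KDM3B, KDM4A, KDM4C, KDM4D, KDM4E, KDM4F, KDM7A and KDM8. BRD8 and BRD10 were among the readers. The remodellers not yet named were ARID3B, ARID3C, ARID4A, ARID4B, ARID5A, ARID5B, CHD9NB, SMARCA1, SMARCAD1 and SMARCAL1. Whether these mRNAs were too scarce to give a site or lacked one was not tested.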

How the data were processed

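The 12 libraries of polyadenylated, fragmented RNA formed 4 groups of 3. The submitters' processing notes name MACS2 2.2.5, STAR 2.7.1, Picard, SAMtools and ChIPseeker among others, and GRCh38; the sources used here do not say which libraries were pooled or with which settings. The deposited lists have no header. The deposited MACS2 value was read as −log10 of a q-value (lowest 1.35). The deposited MetDiff columns were read as a p-value, the log10 of an FDR and, last, a ratio (fold) of precipitate over input; that direction is not stated by the authors, and a ratio of another contrast would change its meaning.

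Python 3.11.15 and pandas 2.3.3 were used. A peak was counted when it lay wholly inside the RefSeq span (GRCh38.p14) of a protein-coding gene, and a summit when its base did. Strand came from the RefSeq start table, or from the peaks for members that it lacks (SETD1B excepted). Placement was tested on simulated data. Alternatives were naming by a sole gene, stricter FDR, fold or q, other roles and a wider summit distance. Named genes were those the rule names singly, the 5 highest folds and 3 highest summits of each role, members with a summit inside a block, the 5 with most peaks and 9 paralog groups; others, such as the SETD, KDM3A, CHD and SMARC genes beyond these, were named after their values were seen. Some results of named members are not reported here. The members and lists were chosen with earlier results of these data known.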

Additional observations from a re-analysis of the deposited data

How the results depend on the processing

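Of 83 recomputed values, 79 stayed within 1.5 times the count or inside the 95% interval of the median (exact order statistics, counting error only). Members with a MetDiff peak numbered 47 (43.9%) as sole gene there, as sole protein-coding gene there, or with the FDR under 0.01. The shares of all protein-coding genes were then 18.2%, 19.3% and 20.3%. With only peaks of an ID whose peaks all overlap the member on its strand, members with a peak numbered 49. That alternative was chosen after seeing the data. With −log10 q of at least 5, 3 summits lay inside a block; counting summits within 150 bases gave 16. Median fold over the strongest peak of each member was 7.095, against 4.63 over all peaks. With BRD7 and BRD9 counted as remodellers, 3 readers had a peak. No paired analysis was possible because the lists hold no value per library; leaving out a replicate was not possible for the same reason. Depth and the libraries behind each list are unknown.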
